A study of Mus musculus with 13 samples.

Results

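Hearts heterozygous for the E3A allele of Cpt1b (genotype WT/E3A) were compared with wild-type hearts (WT/WT) by mRNA sequencing. Hearts were grouped by the genotype in the sample labels, and libraries that the labels describe as potential outliers were left out, so that 3 WT/E3A and 3 WT/WT hearts, 6 of the 13 in the series, entered the comparison. All mice were male, of strain C57BL/6N, 13 weeks old and fed chow, and the labels name no treatment. The WT/E3A mice carried 1 E3A and 1 wild-type allele, the WT/WT mice no E3A allele, and the E3A/E3A mice 2 E3A alleles. The 3 E3A/E3A hearts not described as potential outliers shared the model's estimate of the spread and are named only beside results of the heterozygotes. Adding the potential outliers back gave 4 WT/E3A against 4 WT/WT hearts. The labels name no animal, litter or time of collection, so p-values measure the spread between these samples, which may be partly technical.

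CPT1B is the muscle isoform of carnitine palmitoyltransferase 1, which joins long-chain fatty acids to carnitine at the outer mitochondrial membrane so that they can enter the matrix for beta-oxidation. Malonyl-CoA, the product of acetyl-CoA carboxylase, inhibits the enzyme and so limits fatty acid burning when glucose is plentiful. The heart covers most of its energy need with fatty acids. The study concerns hearts in which CPT1B is less sensitive to malonyl-CoA, and the heterozygotes carry both forms of the enzyme.

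E3A stands for alanine in place of glutamate at position 3, counted from the initiator methionine. The start of the Cpt1b coding sequence is shown because it holds the codon that the allele changes. It lies in exon 2 of the GENCODE M21 annotation (GRCm38, chr15:89425299-89425328, minus strand), and capitals mark the wild-type glutamate codon, codon 3.
Cpt1b: atggcgGAAgcacaccaggcagtagctttc
Counted reads of Cpt1b (RefSeq gene, GRCm38, chr15:89416405-89425862) did not differ detectably between WT/E3A and WT/WT hearts. Levels in CPM (a gene's reads per M counted reads of its library, M standing for mega, with libraries scaled by TMM) were 3.02, 3.00 and 3.18 in the 3 WT/WT hearts and 3.39, 3.28 and 2.63 in the 3 WT/E3A hearts. The groups overlapped: 2 WT/E3A hearts lay above and 1 below all WT/WT hearts. Heterozygotes averaged 3.10 ± 0.410 CPM and wild-type hearts 3.07 ± 0.0958 CPM (SD, n = 3 each). A two-sided exact permutation test of the log2 values gave p = 1, where 0.1 is the smallest p that 3 against 3 allows. With the potential outliers, 4 against 4, the exact permutation p was 0.743, and 0.0286 was the smallest possible. edgeR, which models the counts across all genes, gave a log2 fold change of 0.01 (SE 0.14, adjusted p = 0.991). The 6 libraries held 61 to 131 reads of Cpt1b each. An annotated read-through gene with Chkb overlaps Cpt1b, so reads of both may have been left uncounted or split. Cpt1a, the liver isoform, was at 79.0 to 89.8 CPM in the same 6 hearts (scaled over 13 libraries). The Cpt1b counts may therefore not give the level of its transcript. Within 5 Mb of Cpt1b 65 genes were tested. edgeR called 0 of them, and 2 (3.08%) had an unadjusted p under 0.05.

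Depth was 20.1 to 32.6 M counted reads in the 3 WT/E3A and 23.9 to 41.5 M in the 3 WT/WT libraries. Myh6, the alpha myosin heavy chain of cardiomyocytes, took 3.90% to 4.61% of the reads in the 9 libraries of the model and 6.59% to 9.49% in the 4 potential outliers. Sample titles carry a prefix that no label explains. Prefix C3 held 1 WT/E3A and 1 WT/WT heart (replicate 2 of each), the other 2 WT/E3A hearts had prefix C4 and the other 2 WT/WT hearts prefix C6. Outside C3, genotype and prefix cannot be told apart in this comparison.

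Across the transcriptome few genes separated the heterozygotes from wild type, and those called by edgeR in the fit of 9 hearts belong to the circadian clock. A fit of the 6 compared hearts alone, and another count model (DESeq2), also called genes outside the clock, among them Scn4b and Tppp. Of 14373 genes tested, edgeR called 3 (0.0209%) at a Benjamini-Hochberg adjusted p under 0.05. Hlf rose (1 gene higher, 0.00696% of those tested), and Arntl and Npas2 fell (2 lower, 0.0139%). At an unadjusted p under 0.05 there were 914 genes (6.36%), 479 higher (3.33%) and 435 lower (3.03%) in WT/E3A. The 3 WT/E3A hearts did not overlap the 3 WT/WT hearts for 1829 genes (12.7%). The median log2 fold change of all genes was 0.00, with a 5th percentile of -0.31 and a 95th of 0.28. It was above 0 for 49.5% and below 0 for 50.5% of genes, the shares to set beside the list counts below. Below, a value given in brackets after a gene, or as where a gene stood, is its log2 fold change of WT/E3A over WT/WT, and adjusted p are edgeR's in the fit of 9 hearts unless another is named.

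The clock is a feedback loop of transcription. ARNTL (BMAL1) pairs with CLOCK or its relative NPAS2 and turns on E-box genes, among them the Per and Cry repressors that shut the pair off and the Nr1d1 and Nr1d2 receptors that repress Arntl in turn. HLF, TEF and DBP are related bZIP factors that carry the rhythm to D-box genes. In peripheral tissues Arntl and Npas2 transcripts peak at about the opposite time of day from those of Dbp, Tef, Per3 and Nr1d2. In the heart the cardiomyocyte clock is known to time metabolic genes. The hour at which hearts were taken is not given in the sources used here.

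Arntl and its partner Npas2, on the activating side, fell. Arntl (chr7:113178471-113314126) had 29.8, 36.9 and 34.6 CPM in WT/WT and 20.8, 20.8 and 16.7 CPM in WT/E3A hearts, a log2 fold change of -0.79 (SE 0.10, 95% interval -1.01 to -0.57, adjusted p = 0.0258, edgeR). All 3 WT/E3A hearts lay below all 3 WT/WT hearts, 1.73-fold lower in the fit. Npas2 (chr1:39193702-39363240) had 10.6, 12.4 and 12.8 CPM in WT/WT and 7.18, 7.87 and 7.42 CPM in WT/E3A hearts, a log2 fold change of -0.67 (SE 0.09, 95% interval -0.87 to -0.46, adjusted p = 0.0258, edgeR). Again the groups did not overlap, and the WT/E3A hearts lay close together. Clock itself, the third partner, had means of 92.1 ± 0.426 CPM in WT/WT and 84.6 ± 10.7 CPM in WT/E3A (SD, n = 3), with a log2 fold change of -0.12 (adjusted p = 0.829) and overlapping groups.

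Of the bZIP output factors, Hlf passed the test and its relatives had fold changes of the same sign. Hlf (chr11:90336535-90390917) had 27.0, 25.6 and 24.5 CPM in WT/WT and 37.3, 36.1 and 42.3 CPM in WT/E3A hearts, a log2 fold change of 0.58 (SE 0.07, 95% interval 0.44 to 0.73, adjusted p = 0.00927, edgeR). Every WT/E3A heart was above every WT/WT heart, 1.5-fold in the fit. Tef (chr15:81802673-81826863), just outside the threshold, had 115, 109.8 and 104 CPM in WT/WT and 146, 137 and 172 CPM in WT/E3A hearts, a log2 fold change of 0.47 (SE 0.07, adjusted p = 0.0504). Dbp had 20.1, 18.5 and 14.2 CPM in WT/WT and 40.7, 28.9 and 40.3 CPM in WT/E3A hearts, a log2 fold change of 1.05 (SE 0.25, adjusted p = 0.585). Neither overlapped between the groups, and WT/E3A replicate 3 was the lowest heterozygote for Hlf, Tef and Dbp alike. Nfil3, a bZIP repressor that competes for D-boxes, had a log2 fold change of -0.18 (adjusted p = 0.911).

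The repressors spread more widely. Per3 had 27.4, 23.1 and 21.3 CPM in WT/WT and 40.5, 36.4 and 45.4 CPM in WT/E3A hearts, a log2 fold change of 0.76 (SE 0.12, adjusted p = 0.163), without overlap. Per2, which also responds to hormones and feeding, had 10.6, 3.63 and 6.09 CPM in WT/WT and 14.0, 22.03 and 37.6 CPM in WT/E3A hearts, a log2 fold change of 1.82 (SE 0.68, adjusted p = 0.766). The highest WT/WT heart for Per2 was replicate 2 and the highest WT/E3A heart replicate 4, and although the groups did not overlap the range within each was wide. Per1 (0.76, adjusted p = 0.843), Cry2 (0.24, 0.692) and Cry1 (-0.14, 0.829) did not pass the test, and Cry1 was at 0.01 with the potential outliers, 4 against 4. Ciart, a repressor of the ARNTL and CLOCK pair, had 3.09, 3.00 and 2.74 CPM in WT/WT and 5.18, 4.41 and 6.73 CPM in WT/E3A hearts, a log2 fold change of 0.88 (adjusted p = 0.539). Its groups did not overlap, at a low level. Nr1d2 had 127, 105 and 104 CPM in WT/WT and 138, 156 and 159 CPM in WT/E3A hearts, a log2 fold change of 0.43 (adjusted p = 0.242), while its relative Nr1d1 was at 0.08 (adjusted p = 0.926). Rora, an activating receptor that competes with them, was at 0.12 (adjusted p = 0.871).

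**Figure D1:**
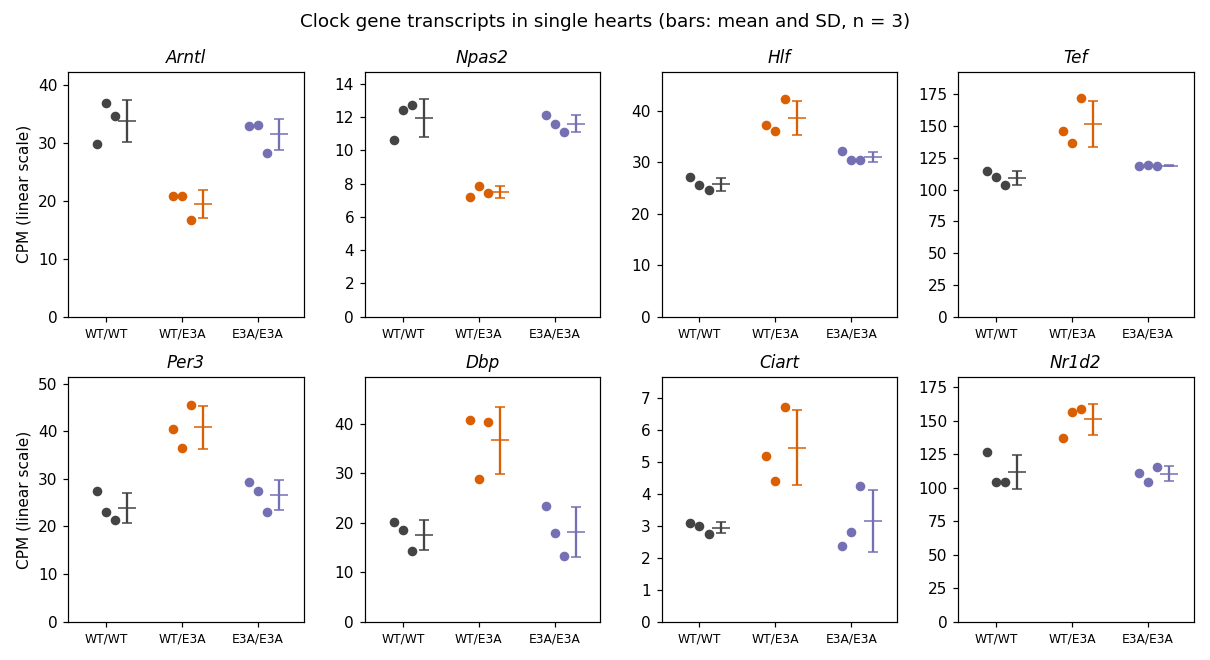
Each point is 1 heart and each panel 1 clock gene, in CPM on a linear axis from 0, with the mean and SD of 3 hearts beside each genotype. For Arntl and Npas2 the WT/E3A hearts sit below all hearts of the other genotypes (20.8, 20.8 and 16.7 CPM for Arntl), and for Hlf, Tef, Per3 and Nr1d2 above them.

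Over the list of 19 clock genes, 12 had a log2 fold change above 0 and 7 below, with a median of 0.24 against 0.00 for all genes tested. The list had 3 called genes, 1 higher and 2 lower, where 0.0209% of all genes were called. It was written with earlier results of these data known, so its counts are not an independent check. A further count at an unadjusted p under 0.05 gave 8 higher and 3 lower, against 3.33% and 3.03% of all genes. The 3 hearts of each group did not overlap for 8 genes higher and 3 lower, against 6.35% and 6.37%. DESeq2, which called 0.132% of all genes, called 7 of the 19, namely Arntl, Npas2, Hlf, Tef, Per3, Nr1d2 and Dbp, and limma-voom (0.00696% of all genes) called 1, Hlf.

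**Figure D2:**
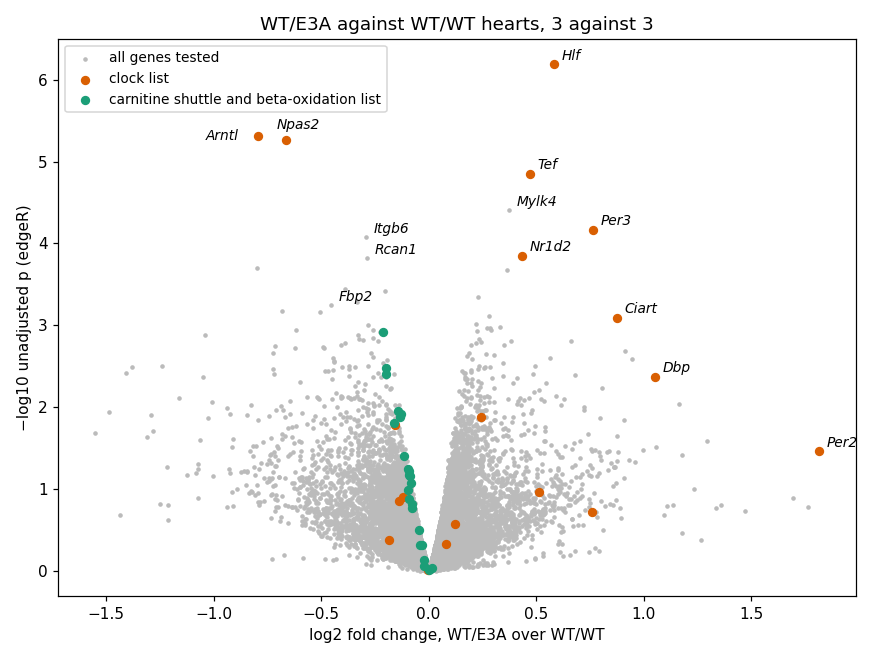
Each point is a gene, with the log2 fold change of WT/E3A over WT/WT on the x axis and -log10 of edgeR's unadjusted p on the y axis. Orange marks the 19 clock genes and green the 24 carnitine shuttle and beta-oxidation genes. Hlf (0.58), Arntl (-0.79) and Npas2 (-0.67) stand highest, and the green points lie at small negative values.

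The 3 calls did not hold with the potential outliers or with the prefix as a block. With 4 hearts against 4, edgeR called 0 genes, and 100 had an unadjusted p under 0.05. The log2 fold changes were then 0.55 for Hlf, -0.64 for Arntl and -0.66 for Npas2. The biological coefficient of variation, edgeR's measure of spread between hearts, was 32.4% in that fit and 7.85% in the fit without the potential outliers. Between the potential outlier hearts themselves, 1 WT/E3A and 1 WT/WT, 10 of the 11 clock genes with an unadjusted p under 0.05 had the same sign. No matching share over all genes was computed. The log2 difference of that pair was -0.56 for Npas2 and 0.25 for Hlf, but only -0.07 for Arntl. Arntl was at 19.5 CPM in the WT/E3A and 20.6 CPM in the WT/WT heart (scaled over 13 libraries). Hlf was at 11.3 CPM in the WT/E3A and 9.41 CPM in the WT/WT heart of that pair (scaled over 13 libraries), below all other hearts of their groups.

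With the title prefix as a block, WT/WT enters through replicate 2 alone, since C6 holds no other genotype. edgeR then called 0 genes, with 516 at an unadjusted p under 0.05. The block gave 0.50 for Hlf (adjusted p = 0.912), -0.61 for Arntl and -0.52 for Npas2 (adjusted p = 1 for both). Within C3 alone, the WT/E3A heart minus the WT/WT heart was 0.46 for Hlf, -0.51 for Arntl, -0.56 for Npas2 and 0.35 for Tef. The 11 clock genes with an unadjusted p under 0.05 were picked in a fit that holds the C3 pair and the other hearts reused here. Where the groups did not overlap, the sign within C3 was fixed beforehand. All 11 kept their sign within C3, with the block and 4 against 4, which is therefore no separate check. The size differed. Nr1d2 was at 0.12 within C3 and 0.23 with the block, and Per2 at 0.40 and 1.07. Bhlhe40, a clock repressor outside those 11, was at 0.51 without the block and -0.18 with it.

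Leaving out 1 of the 9 libraries at a time, Hlf stayed called in 7 of 9 fits, and was lost without WT/WT replicate 3 or 4. Arntl and Npas2 stayed called in 3 of 9, with adjusted p between 0.00842 and 0.234. They were lost without WT/WT replicate 3 or 4, any 1 of the 3 WT/E3A hearts, or E3A/E3A replicate 4. Over the 9 fits the log2 fold change stayed between 0.51 and 0.63 for Hlf, -0.88 and -0.70 for Arntl, and -0.75 and -0.61 for Npas2.

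In hearts with 2 E3A alleles Arntl and Npas2 were above the heterozygote levels. Arntl had 33.0, 33.1 and 28.4 CPM, Npas2 12.1, 11.6 and 11.1 CPM and Hlf 32.1, 30.4 and 30.5 CPM in the 3 E3A/E3A hearts. For Arntl and Npas2 the E3A/E3A hearts lay among or near the WT/WT hearts and above all WT/E3A hearts. E3A/E3A minus WT/E3A was 0.70 for Arntl (adjusted p = 0.0434) and 0.63 for Npas2 (adjusted p = 0.0391), 2 of the 6 genes (0.0417%) that edgeR called between those genotypes, a comparison that shares the 3 WT/E3A hearts and had 6.91% of genes at an unadjusted p under 0.05. With the prefix as a block these were 0.69 and 0.64, with adjusted p = 0.0783 for both. E3A/E3A minus WT/WT, which shares the WT/WT hearts, was -0.09 for Arntl, -0.04 for Npas2, 0.27 for Hlf (adjusted p = 0.176) and 0.12 for Tef.

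The heterozygotes were also tested against the midpoint of both homozygous genotypes on the log2 scale. This asks where WT/E3A hearts depart from a course midway between them. The test shares the WT/E3A and WT/WT hearts with the comparison above, so it is not a separate check. edgeR called 4 genes (0.0278%, with 5.96% at an unadjusted p under 0.05), all of the clock: Npas2 at -0.65 (adjusted p = 0.0135), Arntl at -0.75 (0.0135), Hlf at 0.45 (0.0135) and Tef at 0.41 (0.039). With the prefix as a block or with all 13 libraries 0 were called, and without 1 library at a time 0 to 13.

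Promoter windows are shown for the 4 of the 11 clock genes with an unadjusted p under 0.05 that hold a clock motif, since these elements are the ones through which clock factors act. The windows run from 250 bases before to 50 after an annotated start (RefSeq, GRCm38.p6), 5′ to 3′ on the gene's strand, and capitals mark the motif. For Arntl (chr7:113207261-113207560, plus strand) they mark a RORE, the element bound by the ROR and NR1D receptors, 27 bases after the start.
Arntl: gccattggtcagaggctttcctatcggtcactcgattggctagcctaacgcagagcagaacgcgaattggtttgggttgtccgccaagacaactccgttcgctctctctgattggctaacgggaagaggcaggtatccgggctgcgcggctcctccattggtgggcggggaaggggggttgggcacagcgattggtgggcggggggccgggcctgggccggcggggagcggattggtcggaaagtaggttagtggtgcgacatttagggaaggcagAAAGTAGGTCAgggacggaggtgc
For Per3 (chr4:151044616-151044915, minus strand) they mark D-boxes, bound by HLF, TEF, DBP and NFIL3, at 205 and 158 bases before the start.
Per3: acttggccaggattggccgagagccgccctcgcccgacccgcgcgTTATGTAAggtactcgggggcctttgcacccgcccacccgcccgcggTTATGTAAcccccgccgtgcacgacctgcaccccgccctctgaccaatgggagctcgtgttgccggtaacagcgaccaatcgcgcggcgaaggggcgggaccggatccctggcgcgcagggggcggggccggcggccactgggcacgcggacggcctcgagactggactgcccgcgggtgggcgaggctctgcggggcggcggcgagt
For Tef they mark an E-box, bound by ARNTL with CLOCK or NPAS2, in the windows of both annotated starts (chr15:81802423-81802722 and chr15:81811164-81811463, plus strand), 127 and 138 bases upstream.
Tef, first start: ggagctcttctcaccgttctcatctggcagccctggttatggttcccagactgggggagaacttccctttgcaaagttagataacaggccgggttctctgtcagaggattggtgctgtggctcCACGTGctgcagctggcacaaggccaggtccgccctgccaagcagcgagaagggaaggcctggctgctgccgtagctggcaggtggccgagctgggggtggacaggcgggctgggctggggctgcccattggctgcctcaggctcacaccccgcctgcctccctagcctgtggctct
Tef, second start: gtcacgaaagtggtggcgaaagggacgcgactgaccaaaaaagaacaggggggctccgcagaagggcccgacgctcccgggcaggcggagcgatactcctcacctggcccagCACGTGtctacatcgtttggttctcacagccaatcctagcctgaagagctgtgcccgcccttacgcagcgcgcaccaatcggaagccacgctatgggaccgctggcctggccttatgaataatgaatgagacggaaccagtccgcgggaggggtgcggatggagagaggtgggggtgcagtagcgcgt
For Ciart (chr3:95882179-95882478, minus strand) they mark 3 E-boxes at 116, 58 and 44 bases before the start.
Ciart: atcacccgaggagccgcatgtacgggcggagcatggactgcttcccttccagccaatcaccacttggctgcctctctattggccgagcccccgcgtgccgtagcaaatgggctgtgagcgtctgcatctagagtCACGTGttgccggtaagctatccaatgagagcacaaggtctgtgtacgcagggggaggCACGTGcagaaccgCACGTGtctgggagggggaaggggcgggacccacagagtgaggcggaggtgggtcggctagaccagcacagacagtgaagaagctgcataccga
Motifs were searched on both strands as exact letters: CACGTG for the E-box, TTATGTAA or TTACGTAA for the D-box, and the RORE by its published consensus. Of the 11 clock genes with an unadjusted p under 0.05, 9 had a window in the table and 4 held a match. Windows of Per1, Cry1 and Bhlhe41, outside those 11, also held an E-box and are not printed. Over 16 clock genes and 21 windows, 6 windows held an E-box, 1 a D-box and 1 a RORE. Of all 32851 windows of this length, 7.15% held an E-box, 1.06% a D-box and 0.384% a RORE. A match describes the letters and says nothing of binding in these hearts.

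Beyond the clock, the 20 genes of lowest p held 13 others, none past the adjusted threshold. Mylk4, a kinase of the myosin light chain kinase family, had 307, 302 and 356 CPM in WT/WT and 404, 413 and 432 CPM in WT/E3A hearts, a log2 fold change of 0.37 (SE 0.06, adjusted p = 0.113). Itgb6, an integrin beta chain, had 48.8, 47.3 and 47.0 CPM in WT/WT and 36.7, 40.1 and 39.9 CPM in WT/E3A hearts, a log2 fold change of -0.29 (adjusted p = 0.173). Rcan1, an inhibitor of calcineurin whose transcript reports calcineurin activity in the heart, had 124, 121 and 119 CPM in WT/WT and 95.3, 98.5 and 105 CPM in WT/E3A hearts, a log2 fold change of -0.29 (adjusted p = 0.242). None of the 3 overlapped between groups. The rest, with log2 fold changes, were Tmem171 (-0.80), Inhbb, a subunit of activin B (-0.68), Egf, the epidermal growth factor precursor (-0.50), Fbp2, the muscle fructose bisphosphatase (-0.45), Slc41a3, a magnesium carrier (-0.39), Acsf2, an acyl-CoA synthetase (-0.33), Creg1 (-0.20), D830015G02Rik (0.23), Pi16 (0.28) and Tppp, a tubulin-binding protein (0.37), with adjusted p from 0.276 to 0.539. D830015G02Rik overlaps Myh7 in position, and with no strand setting given its reads cannot be told apart from those of Myh7. In a fit of the 6 hearts alone edgeR called 8 genes, and 5 of them (Fam212b, Usp2, Scn4b, Midn and Tppp) were not called by edgeR in the fit of 9 hearts. Usp2, Fam212b and Midn were called without E3A/E3A replicate 3, Scn4b and Tppp without E3A/E3A replicate 5, and DESeq2 on 9 hearts called Scn4b and Tppp. Rcan1 was at -0.17 with 4 hearts against 4.

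Usp2, a deubiquitinase with a circadian transcript, had 102, 93.1 and 105 CPM in WT/WT, 138, 149 and 165 CPM in WT/E3A and 99.5, 146 and 150.4 CPM in E3A/E3A hearts. Its log2 fold change against WT/WT was 0.59, with adjusted p = 0.667 in the fit of 9 hearts and 0.00744 in that of 6. The E3A/E3A hearts were far apart for Usp2, with replicate 3 at the WT/WT level. Fam212b (31.0, 54.6 and 44.7 CPM in E3A/E3A) and Midn (98.2, 131 and 154 CPM) were likewise lowest in replicate 3 among E3A/E3A hearts. Those 3 genes were chosen for description after their values were seen.

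The carnitine shuttle and beta-oxidation genes lay slightly below wild type, too little for any to pass the test. Of 24 genes tested, 22 had a log2 fold change below 0, against 50.5% of all genes, and the median was -0.09 against 0.00. edgeR, DESeq2 and limma-voom each called 0, and 8 had an unadjusted p under 0.05, all 8 lower, against 3.03% of all genes. For 13 genes all WT/E3A hearts lay below all WT/WT hearts, against 6.37%. In the E3A/E3A hearts, set against the same 3 WT/WT hearts, 22 of 24 were below 0, against 49.4% of all genes, the median was -0.20 and 9 were called, where 0.271% of all genes were. The list was chosen with earlier results of these data known.

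At the step after CPT1B, Slc25a20, the carrier that moves acylcarnitine across the inner membrane, had 215, 224 and 223 CPM in WT/WT and 182, 198 and 212 CPM in WT/E3A hearts, a log2 fold change of -0.16 (SE 0.06, adjusted p = 0.704). Cpt2, which gives the fatty acid back to CoA in the matrix, had 307, 324 and 322 CPM in WT/WT and 278, 298 and 304 CPM in WT/E3A hearts, a log2 fold change of -0.11 (SE 0.05, adjusted p = 0.767). WT/E3A replicate 2 was the lowest heart for both genes, and no WT/E3A heart reached a WT/WT heart. Cpt1a, the liver isoform of the mutated enzyme, had overlapping groups at -0.04 (adjusted p = 0.926) and was at 0.06 with the prefix block.

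Within the beta-oxidation spiral, Hadha and Hadhb encode the 2 subunits of the trifunctional protein. Hadha had 2088, 2228 and 2196 CPM in WT/WT and 1942, 1966 and 2046 CPM in WT/E3A hearts, a log2 fold change of -0.13 (SE 0.04, adjusted p = 0.692). Hadhb had 1239, 1231 and 1201 CPM in WT/WT and 1047, 1181 and 1099 CPM in WT/E3A hearts, a log2 fold change of -0.14 (SE 0.05, adjusted p = 0.692). Neither overlapped. Acaa2, the last thiolase of the spiral, was at -0.20 and Hadh, the short-chain hydroxyacyl-CoA dehydrogenase, at -0.13 (adjusted p = 0.585 and 0.692). For double bonds, Decr1, the mitochondrial dienoyl-CoA reductase, had 491, 512 and 496 CPM in WT/WT and 398, 455 and 440.1 CPM in WT/E3A hearts, a log2 fold change of -0.21 (SE 0.05, adjusted p = 0.539). Ech1, a dienoyl-CoA isomerase, had 1462, 1542 and 1544 CPM in WT/WT and 1229, 1313 and 1427 CPM in WT/E3A hearts, a log2 fold change of -0.20 (SE 0.06, adjusted p = 0.585). Decr1 had the lowest p of the list, and its E3A/E3A hearts were at 368, 371 and 350.5 CPM, lower still (-0.46 against WT/WT, adjusted p = 0.00166).

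**Figure D3:**
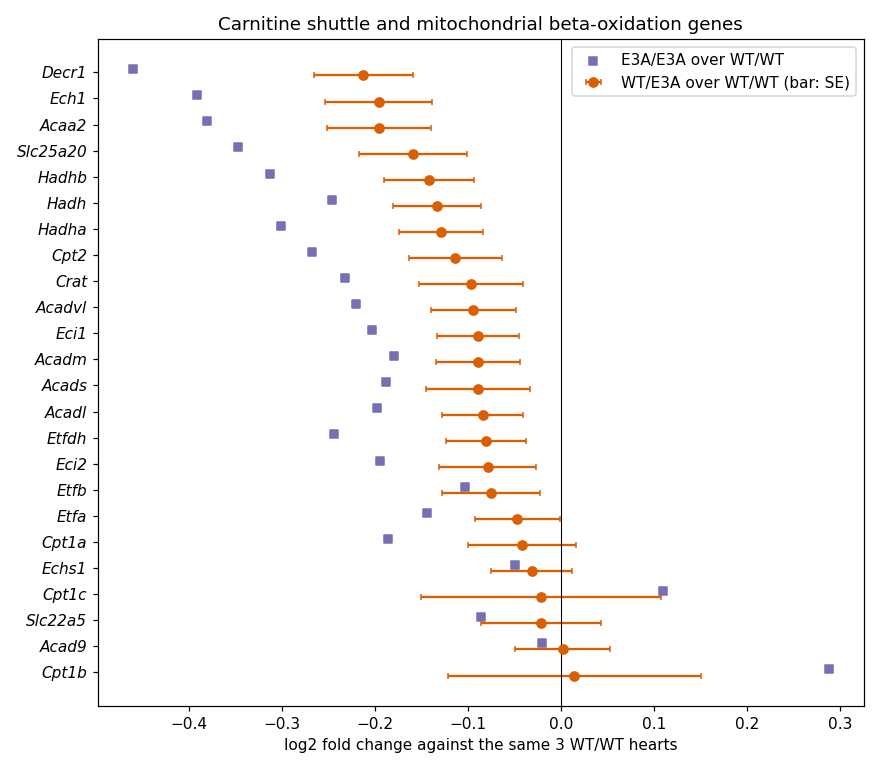
Each row is 1 of the 24 genes, with the log2 fold change of WT/E3A (orange circle, bar: SE) and of E3A/E3A (square) over the same 3 WT/WT hearts on the x axis. The circles run from -0.21 (Decr1) to 0.01 (Cpt1b), and most squares lie to their left.

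The median of the list was -0.10 with 4 hearts against 4, -0.10 with the prefix block and -0.12 within C3. Left-out hearts moved it between -0.11 and -0.07. Summed markers of cardiomyocytes (14 genes) were at 112761 to 121166 CPM in WT/E3A and 110248 to 116154 CPM in WT/WT hearts, overlapping, while fibroblast markers (12 genes) were at 2476 to 2655 and 2422 to 2553 CPM. Their part in the result was not tested. In bulk hearts fewer cells of a type and less RNA per cell cannot be told apart.

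Targets of the nuclear receptor PPAR alpha, which senses fatty acids, gave small negative values as well. Of 20 tested, 17 were below 0, against 50.5% of all genes, the median was -0.08 against 0.00, 6 had an unadjusted p under 0.05, all lower, against 3.03%, and 0 were called by edgeR, DESeq2 or limma-voom. Fabp3, the fatty acid binding protein of heart muscle, had 1352, 1366 and 1388 CPM in WT/WT and 1175, 1139.8 and 1274 CPM in WT/E3A hearts, a log2 fold change of -0.19 (SE 0.05, adjusted p = 0.585). Acot1, a cytosolic acyl-CoA thioesterase, had 14.5, 14.6 and 15.2 CPM in WT/WT and 8.37, 13.3 and 11.6 CPM in WT/E3A hearts, a log2 fold change of -0.40 (SE 0.13, adjusted p = 0.667). WT/E3A replicate 2 was lowest for Acot1, and its close relatives Acot2 (-0.10) and Acot3 (-0.63) share sequence with it, so how their reads were divided is uncertain. The peroxisomal genes Ehhadh (-0.26) and Pex11a (-0.28) also had groups that did not overlap (adjusted p = 0.681 and 0.736).

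The PPAR targets Pdk4, Ucp3 and Angptl4, known to respond to fasting, spread widely among the heterozygotes and among the E3A/E3A hearts. Pdk4, which blocks pyruvate dehydrogenase, had 649, 408 and 506 CPM in WT/WT and 279, 896 and 685 CPM in WT/E3A hearts, a log2 fold change of 0.25 (SE 0.73). Ucp3, an uncoupling protein, had 86.1, 70.4 and 70.1 CPM in WT/WT and 45.2, 94.5 and 68.8 CPM in WT/E3A hearts, a log2 fold change of -0.11 (SE 0.37). Angptl4, a secreted inhibitor of lipoprotein lipase, had 9.84, 9.35 and 12.6 CPM in WT/WT and 6.73, 16.4 and 11.4 CPM in WT/E3A hearts, a log2 fold change of 0.14 (SE 0.38). For all 3 genes WT/E3A replicate 2 was the lowest and replicate 3 the highest of the 6 hearts, and without 1 of those 2 hearts the sign turned. Pdk4 was at -0.11 with the prefix block. In the E3A/E3A hearts (scaled over 13 libraries) Pdk4 was at 247, 265 and 1148 CPM. Ucp3 was there at 35.2, 32.7 and 68.8 CPM and Angptl4 at 6.55, 5.41 and 11.1 CPM, so the wide spread was not particular to the heterozygotes.

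Among the regulators, Ppara had 151, 134 and 156 CPM in WT/WT and 174, 193 and 227 CPM in WT/E3A hearts, a log2 fold change of 0.43 (SE 0.22, adjusted p = 0.801), with no overlap, and was at 0.29 with the prefix block and 0.20 within C3. Ppargc1a, the coactivator PGC-1 alpha, was at 0.40 (SE 0.42, adjusted p = 0.899), with overlap. Of 17 regulators tested 13 were above 0, 0 were called and 1, Nrf1, which encodes nuclear respiratory factor 1, a transcription factor of nuclear genes for mitochondrial proteins (0.17), had an unadjusted p under 0.05. On the malonyl-CoA side, Acaca (-0.01) and Acacb (0.01), the carboxylases that make the inhibitor, and Mlycd, the decarboxylase that removes it (-0.07), had overlapping groups and adjusted p of 0.871 or more. The signs of Acaca and Mlycd turned with the prefix block (0.08 and 0.10). The AMPK subunit gene Prkab2 was at -0.14 (adjusted p = 0.718), 1 of 16 genes of that list with an unadjusted p under 0.05. The uptake genes Cd36 (-0.07) and Slc2a4 (0.06) had overlapping groups. The medians of other fuel lists lay near 0. The median was -0.02 over 43 nuclear oxidative phosphorylation genes, -0.02 over 22 tricarboxylic acid cycle genes and 0.01 over 13 pyruvate dehydrogenase genes, with 0 called in each. Glucose uptake and glycolysis genes were above 0 in 20 of 27, against 49.5% of all genes. Genes below 0, 50.5% of all, were 21 of 30 for fatty acid uptake and storage. They were 17 of 19 for branched-chain amino acid breakdown and 17 of 21 for peroxisomal oxidation. edgeR and limma-voom called 0 of these 4 lists, and DESeq2 called Fbp2 of the glucose list.

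Several genes that differed most between E3A/E3A and WT/WT hearts had intermediate values in the heterozygotes. Fbp2 had 27.8, 34.9 and 30.9 CPM in WT/WT, 20.7, 23.9 and 23.4 CPM in WT/E3A and 16.7, 15.9 and 13.0 CPM in E3A/E3A hearts. Alox5, arachidonate 5-lipoxygenase, had 24.7, 28.6 and 26.7 CPM in WT/WT, 19.4, 21.8 and 23.3 CPM in WT/E3A and 13.8, 14.0 and 14.9 CPM in E3A/E3A hearts. Slc9a9, a sodium-proton exchanger of endosomes, had 3.60, 3.51 and 3.59 CPM in WT/WT, 2.79, 1.99 and 2.80 CPM in WT/E3A and 0.766, 0.589 and 0.557 CPM in E3A/E3A hearts. In these 9 hearts the genotypes did not overlap for any of the 3 genes, and the WT/E3A hearts lay between the others. The potential outlier hearts broke this order for Slc9a9, with 1.92 CPM in the WT/WT, 0.275 CPM in the WT/E3A and 2.98 and 2.63 CPM in the E3A/E3A hearts (scaled over 13 libraries), so the E3A/E3A hearts were the highest of the 4 and the WT/E3A heart the lowest. Against WT/WT the heterozygotes were at -0.45 (adjusted p = 0.515) for Fbp2, -0.30 (0.539) for Alox5 and -0.52 (0.667) for Slc9a9. E3A/E3A minus WT/E3A was -1.94 for Slc9a9 (adjusted p = 0.00275) and -0.60 for Alox5 (0.0228), both called by edgeR, and -0.57 for Fbp2 (0.128). Against the midpoint Slc9a9 was at 0.71 (adjusted p = 0.424), Alox5 at 0.15 (0.829) and Fbp2 at 0.06 (0.923). These genes were picked for their known E3A/E3A difference, which uses the same WT/WT hearts.

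**Figure D4:**
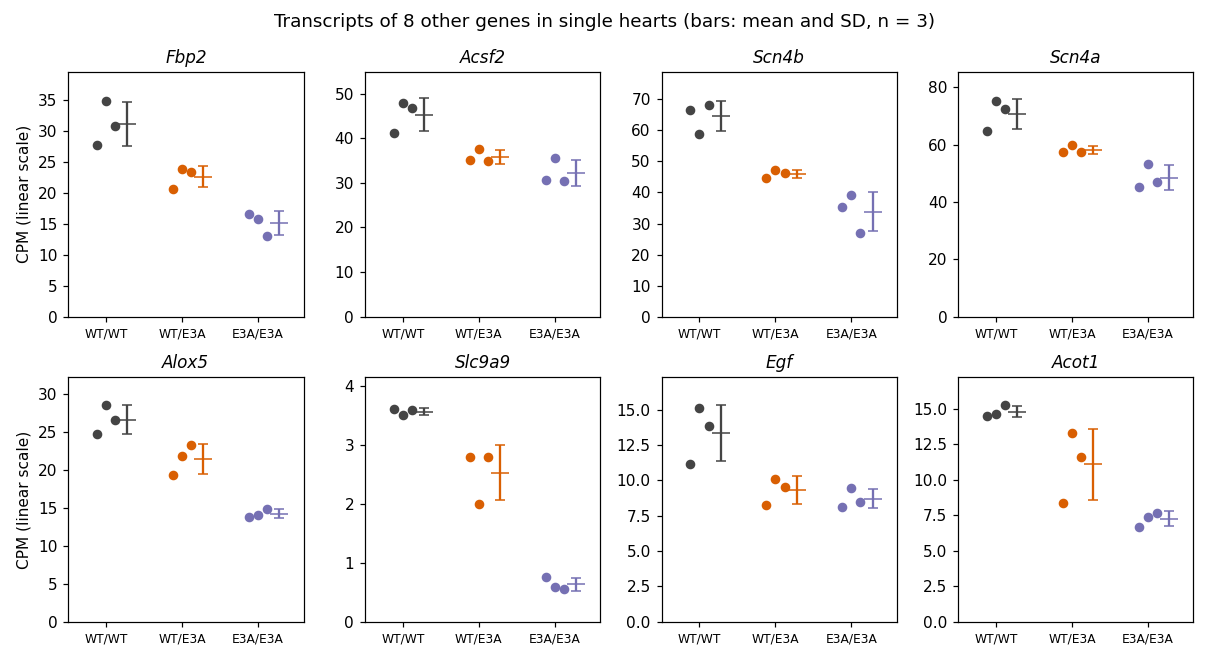
Each point is 1 heart and each panel 1 gene, in CPM on a linear axis from 0, with mean and SD of 3 hearts. The WT/E3A hearts lie between the homozygous genotypes for Fbp2, Scn4b, Scn4a, Alox5, Slc9a9 and Acot1 (Slc9a9 at 2.79, 1.99 and 2.80 CPM), whereas for Egf and Acsf2 they overlap the E3A/E3A hearts.

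The sodium channel genes Scn4b and Scn4a also had WT/E3A hearts between the homozygous ones, within an ion channel and calcium handling list of which 20 of 30 were above 0 (median 0.07). Scn4b, the beta 4 subunit that shapes sodium current in the ventricle, had 66.7, 59.0 and 68.2 CPM in WT/WT, 44.6, 47.2 and 46.3 CPM in WT/E3A and 35.3, 39.2 and 27.0 CPM in E3A/E3A hearts. Scn4a, the skeletal muscle alpha subunit, had 64.9, 75.1 and 72.4 CPM in WT/WT, 57.4, 59.7 and 57.3 CPM in WT/E3A and 45.2, 53.4 and 47.0 CPM in E3A/E3A hearts. Neither gene overlapped between WT/E3A and WT/WT. The log2 fold changes were -0.49 (SE 0.11, adjusted p = 0.539) and -0.28 (SE 0.07, adjusted p = 0.539), and Scn4b was called in the fit of the 6 hearts alone and by DESeq2. The pacemaker channel gene Hcn2 (0.22) and the junctophilin gene Jph2 (0.13) were the 2 of 30 ion channel and calcium handling genes with an unadjusted p under 0.05 on the higher side. With 4 hearts against 4, Scn4b was at -0.37 and Scn4a at -0.16. The potential outlier hearts (scaled over 13 libraries) broke the order for Scn4a, with 63.1 CPM in the WT/WT and 70.7 CPM in the WT/E3A heart. Their E3A/E3A hearts had 40.6 and 42.1 CPM of Scn4a. For Scn4b they kept the order, with 85.1 CPM in the WT/WT, 77.0 CPM in the WT/E3A and 35.7 and 39.9 CPM in the E3A/E3A hearts. Egf had 11.2, 15.1 and 13.8 CPM in WT/WT and 8.27, 10.1 and 9.57 CPM in WT/E3A hearts, a log2 fold change of -0.50 (SE 0.12, adjusted p = 0.539), and its E3A/E3A hearts (8.16, 9.46 and 8.49 CPM) overlapped the heterozygotes.

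All 24 extracellular matrix genes had log2 fold changes above 0, against 49.5% of all genes, with a median of 0.12. edgeR, DESeq2 and limma-voom called 0, 7 had an unadjusted p under 0.05 against 3.33%, and 8 did not overlap against 6.35%. Fn1, fibronectin, had 75.8, 85.1 and 75.8 CPM in WT/WT and 95.7, 99.9 and 89.1 CPM in WT/E3A hearts, a log2 fold change of 0.27 (SE 0.07, adjusted p = 0.584). Col1a1, a chain of fibrillar type I collagen, had 177, 176 and 179 CPM in WT/WT and 201, 202 and 189 CPM in WT/E3A hearts, a log2 fold change of 0.16 (SE 0.05, adjusted p = 0.667). Every WT/E3A heart lay above every WT/WT heart for both. Col5a1 (0.20), Sparc, a collagen-binding glycoprotein (0.19), and Col6a2 (0.16) had adjusted p of 0.585 to 0.667. In the potential outlier hearts (scaled over 13 libraries) Col1a1 stood at 1111 CPM in the WT/E3A and 897 CPM in the WT/WT heart, above all others of their groups, while Fn1 stood at 69.4 and 61.5 CPM. The median was 0.24 with 4 against 4. It was 0.15 with the prefix block and 0.06 within C3.

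Of the fibroblast markers, 10 of 12 were above 0, against 49.5% of all genes, with a median of 0.07. An unadjusted p under 0.05 was found for 3, all higher, against 3.33% of all genes, and 0 were called. Pi16, a marker of adventitial fibroblasts, had 40.5, 36.4 and 38.5 CPM in WT/WT and 46.0, 44.7 and 49.8 CPM in WT/E3A hearts (0.28). Smooth muscle and pericyte markers (12 genes) had a median of 0.06, with Acta2, smooth muscle actin, at 0.44 (adjusted p = 0.692). Their summed levels were 1858.8 to 1874 CPM in WT/E3A and 1791 to 1858.2 CPM in WT/WT hearts, without overlap but nearly touching. Of the 12, 3 had an unadjusted p under 0.05, all higher, against 3.33% of all genes. Their part in the matrix values was not tested.

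**Figure D5:**
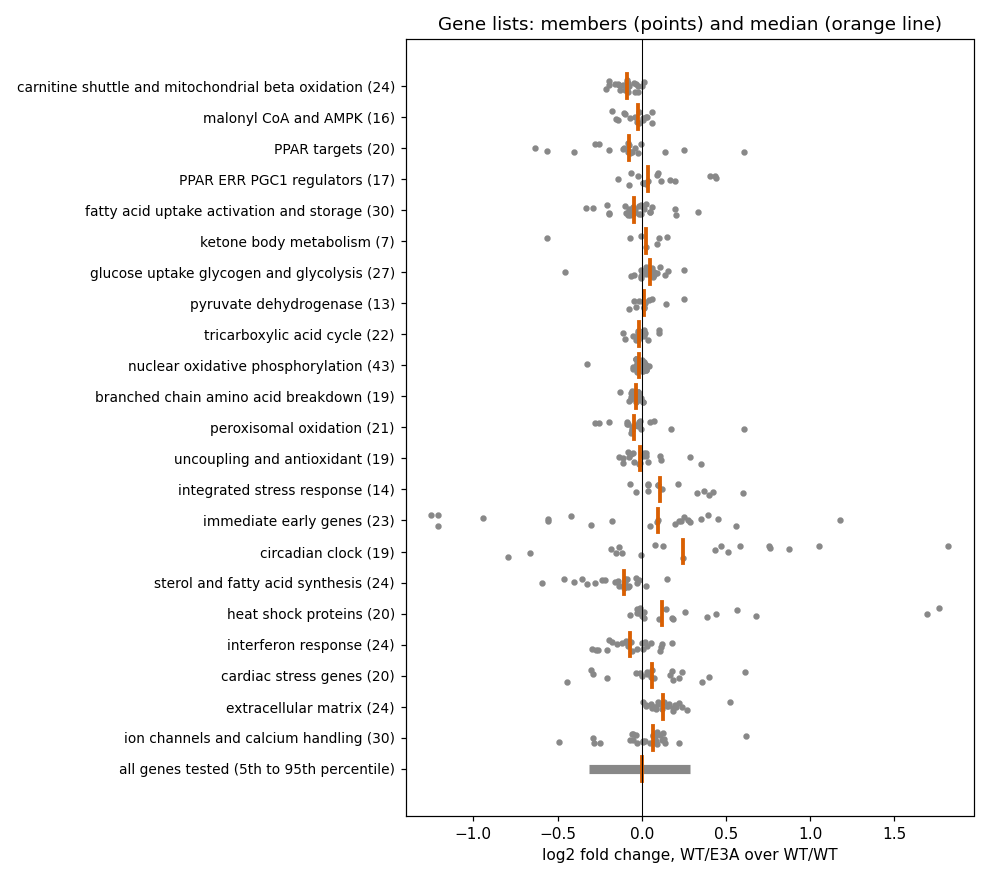
Each grey point is a gene of the list named at the left (number tested in brackets), with its log2 fold change of WT/E3A over WT/WT on the x axis, the orange line is the list's median and the grey bar spans the 5th to 95th percentile of all genes tested. The clock list runs from -0.79 to 1.82, and the 24 matrix genes all lie above 0.

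Other gene groups gave values without calls. Of 24 sterol and fatty acid synthesis genes 22 were below 0, against 50.5% of all genes, with a median of -0.11. At an unadjusted p under 0.05, 2 were lower and 1 higher, against 3.03% and 3.33% of all genes. Insig1, which holds the sterol sensor in the endoplasmic reticulum, had 22.7, 25.5 and 20.3 CPM in WT/WT and 15.5, 18.0 and 18.0 CPM in WT/E3A hearts, a log2 fold change of -0.40 (SE 0.11, adjusted p = 0.585), and its groups did not overlap. Srebf1, the transcription factor of lipid synthesis, was at -0.22 (adjusted p = 0.767) with overlap. In E3A/E3A against the same WT/WT hearts the median of this list was 0.02.

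Of 20 heat shock genes 15 were above 0, with a median of 0.12 that was -0.06 with the prefix block and -0.14 within C3. Hspa1a (1.70) and Hspa1b (1.76), near-identical inducible chaperones between which the division of reads is uncertain, were at -0.30 and -0.22 with the block. Bag3, a cochaperone of muscle, was at 0.19 (adjusted p = 0.736). The median of 23 immediate early genes was 0.10, turning to -0.12 with the prefix block and -0.18 within C3. Of them 14 were above 0, from -1.25 (Fos) to 1.18. Of them DESeq2 called Ier3 alone. It had 18.7, 11.8 and 15.01 CPM in WT/WT and 21.0, 21.4 and 25.5 CPM in WT/E3A hearts, a log2 fold change of 0.56 (edgeR adjusted p = 0.585), and stood at 0.20 with the prefix block and 0.17 within C3. Jund, an AP-1 subunit, had 116, 125 and 123 CPM in WT/WT and 140.2, 138 and 138 CPM in WT/E3A hearts, a log2 fold change of 0.20 (adjusted p = 0.539). For Ier3 and Jund the groups did not overlap. Gclm, which limits glutathione synthesis, was at 0.28 (adjusted p = 0.585), and 12 of 14 integrated stress response genes were above 0, with a median of 0.11 (-0.04 within C3) and 1 at an unadjusted p under 0.05.

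The cardiac stress genes Nppa, Nppb and Myh7 did not differ detectably between the groups. Nppa, atrial natriuretic peptide, had 172, 106 and 145 CPM in WT/WT and 139, 179 and 121 CPM in WT/E3A hearts, a log2 fold change of 0.05 (SE 0.27). Nppb, its ventricular relative, had 122, 86.9 and 86.0 CPM in WT/WT and 136, 85.5 and 72.5 CPM in WT/E3A hearts, a log2 fold change of -0.01 (SE 0.28). The groups overlapped for both, and the sign of each turned when single hearts were left out. Myh6 was at 0.09 (SE 0.06) and Myh7, the slow myosin that rises in failing mouse hearts, at 0.08 (SE 0.06). Of the 20 genes of that list only Rcan1, Fhl1 (0.18) and Ace had an unadjusted p under 0.05.

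Markers of other cells the hearts could hold were read beside these results. Epicardial markers were above 0 in 7 of 7 tested, with a median of 0.64, and summed to 8.07 to 17.9 CPM in WT/E3A and 6.84 to 9.26 CPM in WT/WT hearts. WT/E3A replicate 3 was the highest, with Upk3b, a mesothelial uroplakin, at 2.67 CPM, without which the median was -0.02, and within C3 the median was -0.17. Lymphocyte markers were below 0 in 6 of 6, with a median of -0.27. They summed to 11.6 to 14.3 CPM in WT/E3A and 13.1 to 17.5 CPM in WT/WT, overlapping, and the B cell gene Cd79a had 1.05, 0.793 and 0.849 CPM in WT/WT and 0.498, 0.551 and 0.604 CPM in WT/E3A. Endothelial (12 genes), macrophage (12) and atrial and pacemaker markers (12) had medians of -0.06, 0.04 and 0.00, with overlapping sums. The globin genes Hba-a1, Hba-a2, Hbb-bs and Hbb-bt were listed at 0 in all 6 hearts. Cardiomyocyte markers were abundant in every heart, as the heart label has it. None of the marker lists had a gene called by edgeR, DESeq2 or limma-voom, and their part in the clock and metabolic results was not tested.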

How the data were processed

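Poly(A) RNA of 13 mouse hearts had been sequenced, and the deposited values are unnormalized counts of reads for 24061 gene symbols in each heart. The submitters' processing notes name STAR 2.4.0 (an aligner), featureCounts 1.4.4 (a read counter) and the builds mm10 and GRCm38. Settings for strand and multi-mapping reads are not given in the sources used here. Files were assigned to genotypes from the labels, and no 2 libraries of a genotype agreed within sampling noise (chi-square per gene 4.4 to 557 over 22 pairs).

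The tests ran in edgeR 4.0.16 under R 4.3.3 (TMM factors, low counts filtered by filterByExpr, robust quasi-likelihood F test) in 1 fit of 9 libraries, Benjamini-Hochberg over 14373 genes, called at an adjusted p under 0.05. Interval, fold and SE come from that fit, and intervals are at 95%. CPM of single hearts use the TMM factors of the 9 libraries. Cpt1b was also compared on log2(CPM + 0.1). DESeq2 1.42.0, limma-voom (limma 3.58.1), RLE factors, other filters, other library sets, the title prefix as a block and single left-out libraries were the alternatives. Scripts were tested on simulated data. RefSeq gave a position for 14317 tested symbols. The 6 compared libraries carried 20.1 to 41.5 M counted reads, and no label names molecular identifiers, so reads may include copies of 1 molecule.

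Named genes were those called, those of next lowest p up to 20, 24 metabolic and cardiac genes, genes called with the potential outliers added (0), up to 4 of lowest p and all members at an unadjusted p under 0.05 of 36 lists, and the 5 of lowest p against the midpoint. Of 633 list entries 631 were in the files. Values of some list members are not reported here. Members, lists and genes were chosen with earlier results of these data known. The E3A/E3A against WT/E3A fit with the prefix block was added after seeing the data.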

Additional observations from a re-analysis of the deposited data

Results flagged for a closer look

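Of 14 groups of 4 hearts checked for a single heart far from the rest, 5 held one, where chance flags about 1 in 20 groups. The clock genes checked were picked from these data, and the labels already named the potential outliers. That share is therefore only a rough guide. The WT/WT heart described as a potential outlier, replicate 1, had 9.41 CPM of Hlf, the others 23.1 to 25.5 CPM, all scaled over 13 libraries. The same heart had 1.58 CPM of Cpt1b, with the others at 2.83 to 3.00 CPM, and 9.26% of its reads were of Myh6, against 3.90% to 4.26%. The WT/E3A potential outlier, replicate 1, had 9.49% of its reads in Myh6, against 4.07% to 4.61% in the other heterozygotes. For Arntl the heart that stood apart was not a potential outlier: WT/E3A replicate 4 had 15.7 CPM, the others 19.5 to 19.7 CPM. Arntl lost its call without this heart, as it did without either other compared heterozygote, with log2 fold changes between -0.88 and -0.70 whichever of the 9 libraries was left out.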

How the results depend on the processing

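The number of genes called in WT/E3A against WT/WT, 3 in edgeR with 9 libraries, was 0 with the potential outliers 4 against 4, 0 with all 13 libraries, 0 with 13 libraries and a term for the potential outliers, 8 with the 6 hearts alone, 19 in DESeq2, 1 in limma-voom, 5 without a low-count filter, 0 with the title prefix as a block and 0 to 12 with 1 library left out. Against the midpoint, 4 genes were called, and the number was 0 with 13 libraries, 1 with the outlier term, 20 in DESeq2, 0 in limma-voom, 8 without a filter, 0 with the block and 0 to 13 with 1 library left out. The cause was not tested. Without WT/WT replicate 2, 12 genes were called, and without WT/WT replicate 3 or 4, 0. For Cpt1b the log2 difference was 0.16 within C3 and -0.0445 to 0.115 with 1 library left out. Over 98 genes, values of the alternative fits were compared with the main fit by sign and side of the threshold. Differences within C3 were judged by whether they lay within 1 SD of the main value, and their sign only for called genes. By these rules 1820 single-gene values stayed the same and 53 within C3 moved. Of the rest, 34 came to pass the threshold, 28 ceased to and 22 changed sign. With the block the sign turned for Cpt1a (0.0557), Acaca (0.076), Mlycd (0.103), Pdk4 (-0.107), Nppa (-0.0743), Hspa1a (-0.30), Hspa1b (-0.22) and Bhlhe40 (-0.18), and Cry1 was at 0.0145 with 4 against 4 and 0.0148 with 13 libraries. With 1 library left out the ranges spanned 0 for Acaca (-0.0698 to 0.0592), Acacb (-0.0455 to 0.0453), Pdk4 (-0.112 to 0.601), Ucp3 (-0.404 to 0.114), Angptl4 (-0.223 to 0.394), Nppa (-0.117 to 0.221) and Nppb (-0.315 to 0.177). No paired analysis was possible because the labels give no replicate numbers: those used here follow the order of accession, name a heart and pair none. With 3 hearts a group, genes with few counted reads, such as Cpt1b, are limited by those reads.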
